A study of Mus musculus with 4 samples.

Results

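Mature B cells of muscle from Nse-Bmp4 mice were selected by gene content from 4 droplet-based (10x) single-cell RNA libraries. A cell was kept when mitochondrial transcripts made up at most 10% of its unique molecular identifiers (UMIs, the count of captured RNA molecules) and Cd79a and Cd79b together had at least 3 UMIs. It also needed at least 1 UMI of Ms4a1 or Ighd, and no UMI of Cd3e, Vpreb1, Igll1, Dntt or Rag1. This rule found 1830 cells among the 59824 cells under the mitochondrial limit, out of 62665 barcodes in all. The choice rested on measured values, so the levels of those genes are a description and support nothing.

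The study followed heterotopic ossification, the growth of bone in soft tissue, after cardiotoxin injury of the tibial muscle. All mice were C57BL/6 Nse-Bmp4 animals of 6 to 8 weeks. In this genotype the neuron-specific enolase promoter drives Bmp4, a bone morphogenetic protein, and the uninjured muscle carries the transgene too. The groups were Uninjured muscle and muscle taken 1, 3 or 7 days after the injury (dpi, days post injury), with 1 library each from 3 pooled muscles. No wild-type or sham-injected library was analysed here, and the 3 injured libraries are all compared with the same Uninjured library. With 1 library per time point no difference between time points could be tested, and the 95% intervals below cover counting error only. Neither the pool of animals nor the tissue dissociation was repeated within a time point.

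B cells recognise antigen through a surface immunoglobulin that is held in the membrane with Cd79a and Cd79b, which carry the signal inwards. Recirculating mature B cells carry IgM and IgD, present peptides on MHC class II, and home to lymphoid follicles, and they are uncommon in healthy muscle. Cells that have just left the bone marrow (transitional B cells) still carry markers such as Cd93, and cells that respond to antigen can switch their heavy chain and become antibody-secreting plasma cells.

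Mature B cells were most frequent at 1 dpi. They made up 1.89% of cells in Uninjured muscle (223 of 11827, exact Clopper-Pearson 95% interval 1.65 to 2.15), 11.4% at 1 dpi (1242 of 10853, 10.8 to 12.1), 1.36% at 3 dpi (192 of 14118, 1.18 to 1.56) and 0.751% at 7 dpi (173 of 23026, 0.644 to 0.871). The interval at 1 dpi lay above the other 3, and 67.9% of all mature B cells came from that library. The shares depended on depth. With each cell first reduced to 2000 UMIs they were 1.357%, 9.014%, 0.4245% and 0.1179% of the cells that deep, again highest at 1 dpi. A share depends on every other cell type in the droplets, so fewer B cells and more of another type cannot be told apart from it. Against T cells (Cd3e without Cd79a or Cd79b) the order was the same at 1 dpi, with 93.7 mature B cells per 100 T cells in Uninjured muscle, 221 at 1 dpi, 29.6 at 3 dpi and 27.7 at 7 dpi. B cell progenitors, which passed the same Cd79 minimum and had a UMI of Vpreb1, Igll1, Dntt or Rag1 (surrogate light chain and recombination genes), numbered 8, 185, 121 and 2. There were 63.0 progenitors per 100 mature B cells at 3 dpi, compared with 3.59 in Uninjured muscle, 14.9 at 1 dpi and 1.16 at 7 dpi.

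**Figure D1:**
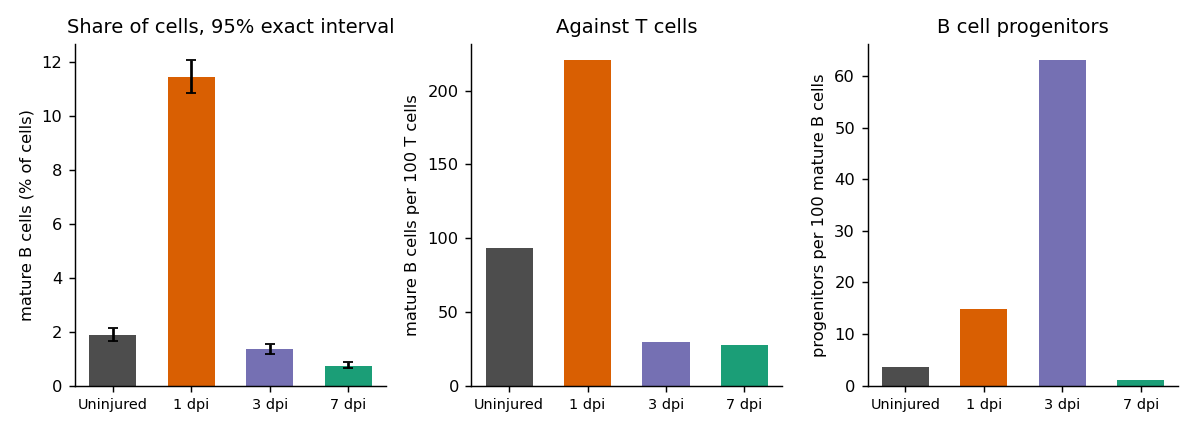
Mature B cells in the 4 libraries. Left, percent of cells under the mitochondrial limit, with exact 95% intervals; middle, mature B cells per 100 T cells; right, B cell progenitors per 100 mature B cells, both ratios of cell counts without intervals. The 1 dpi library has the highest share (11.4%) and the 3 dpi library the highest ratio of progenitors (63.0 per 100).

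B lineage genes that the rule did not use were checked next. Pax5, the transcription factor that holds B cell identity, had a UMI in 58.7% of members in Uninjured muscle, 77.2% at 1 dpi, 65.6% at 3 dpi and 37.0% at 7 dpi. In T cells of the same libraries that share was at most 0.533%. The IgM heavy chain gene Ighm was seen in 96.9%, 98.6%, 95.8% and 93.6%, while T cells had it in 20.4% to 42.5%, so its share is less specific. Levels are in CPM, for which the members of a library were added up and every gene was scaled to a total of 1000000 UMIs. By this measure Pax5 stood at 248, 466, 416 and 191 CPM in Uninjured, 1, 3 and 7 dpi members.

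Among the genes of the rule, the median count of Cd79a and Cd79b together was 9, 7, 6 and 6 UMIs per cell. At its threshold, members with exactly 3 such UMIs numbered 4, 87, 30 and 33, and 7, 56, 31 and 21 further cells had 2 UMIs and passed the rest of the rule. At 1 dpi Igkc was seen in 91.9% of those with 3 UMIs and 92.9% of those with 2.

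Depth and admixed RNA differed between libraries and bear on every comparison. The median member had 2532 UMIs in Uninjured muscle, 2943 at 1 dpi, 1856.5 at 3 dpi and 1541 at 7 dpi, and the summed UMIs were 899639, 5037615, 647237 and 476688. The 10% of members with the most UMIs held 35.3%, 33.7%, 41.7% and 46.7% of these. Mesenchymal markers (8 genes, Dcn or collagen genes the most abundant) summed to 17240, 4333, 13690 and 22560 CPM in members, with none of the 8 at 0. Neutrophil markers (8 genes) summed to 8.89 CPM in Uninjured muscle, where 5 of them, Ly6g among them, were at 0, and to 5273 CPM at 1 dpi, where S100a9 alone gave 2047 CPM and none was at 0. At 7 dpi the 6 chondrocyte markers summed to 3191 CPM, led by Col2a1. Cells in which markers of other types exceeded 1% of UMIs were 15.7%, 7.33%, 12.0% and 14.5% of members and held 44.2%, 21.0%, 37.3% and 51.0% of their UMIs. Many results are therefore also given over the remaining 188, 1151, 169 and 148 cells, called the cells under the 1% limit. Markers of B cell progenitors were not counted for that limit. No barcode of a mature B cell was shared between libraries.

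Few members were class-switched, a count that the rule itself bears on, since Ighd was among the genes that admitted a cell. Cells that met the rest of the rule but had no UMI of Ms4a1 or Ighd numbered 38, 91, 87 and 36 in the 4 libraries and are not counted here. Members with at least 3 UMIs of the Ighg, Igha and Ighe genes, and more of these than of Ighm and Ighd, numbered 0 of 223 in Uninjured muscle, which by a limit of 3 cells allows a share of up to 1.345%. They numbered 11 of 1242 at 1 dpi (0.886%, 0.443 to 1.58), 4 of 192 at 3 dpi (2.08%, 0.571 to 5.25) and 1 of 173 at 7 dpi (0.578%, 0.0146 to 3.18). These intervals overlap. Levels of Ighg2c, Ighg2b and Jchain (the chain that joins secreted IgA and IgM) were among the 10 highest ratios at 1 and 3 dpi, and a few cells carried them. At 1 dpi, 57 cells had an Ighg2c UMI and the top cell held 51.5% of them, and at 3 dpi 1 cell held all 2065. T cells had an Ighg2c UMI in 7.10% at 1 dpi against 4.59% of members, so a low count of it in a member is no more frequent than in T cells.

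Cells with more than 100 light chain UMIs numbered 2, 7, 3 and 0, and 9 of them, 6 at 1 dpi and 3 at 3 dpi, had at least 10 UMIs of Jchain. Ighm was absent from 8 of these 9 cells. The most loaded cell at 1 dpi had 14088 UMIs of Igkc, 5069 of Ighg2c and 994 of Jchain among 34926 in all, with no Ighm and 48 UMIs of Mzb1, a chaperone of antibody-secreting cells. The next 2 at 1 dpi carried 4664 UMIs of Ighg2c and 3121 of Ighg2b. At 3 dpi the 3 cells were led by Ighg2b (2533 UMIs), Ighg2c (2065) and Igha (1068). Each was dominated by a single switched heavy chain, and the 7 cells at 1 dpi and 3 at 3 dpi held 68.8% and 84.2% of the light chain UMIs of all members in their libraries. At 3 dpi each of the 3 had a single UMI of Ms4a1 and none of Ighd, the least that the rule admits. Heavy chain variable genes, which differ between B cell clones, were read in few cells. At 1 dpi 136 members had a UMI of such a gene, 59 different genes were seen, and the most frequent, Ighv1-26, was in 12 of these cells (8.82%, 4.64 to 14.9).

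Kappa and lambda light chain UMIs were counted together in most members. Whether both came from RNA of the same cell cannot be told from these counts, and this holds for every light chain share below. A B cell usually keeps a productive rearrangement of either kappa or lambda, with kappa far more common in mice. Igkc, the kappa constant gene, lies at chr6:70726435-70726966 on the plus strand, and the Iglc genes lie on the minus strand of chromosome 16, Iglc1 at chr16:19061618-19062071, Iglc3 at chr16:19065230-19065681 and Iglc2 at chr16:19198396-19200351 (GRCm38). Iglc2 and Iglc3 are near-identical copies, so the division of UMIs between them is uncertain, and the sum over the Iglc genes was used. In Uninjured muscle Iglc1 was seen in 43.5% of members, Iglc2 in 92.4% and Iglc3 in 67.7%. Among members with at least 3 light chain constant UMIs, at least 90% of these were kappa in 9.05% of cells in Uninjured muscle, 35.9% at 1 dpi, 31.7% at 3 dpi and 16.5% at 7 dpi. At least 90% were lambda in 5.43%, 2.74%, 5.00% and 8.82%, and the others were mixed. These shares depended on depth. With each cell reduced to 1000 UMIs the kappa share was 14.89% in Uninjured muscle and 41.9% at 1 dpi. At 2000 UMIs the lambda share at 7 dpi was 4.167% (1 of 24 cells).

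By simple majority, lambda led in 17.2% of Uninjured members (38 of 221, 12.5 to 22.8), 9.07% at 1 dpi (109 of 1202, 7.505 to 10.83), 16.1% at 3 dpi (29 of 180, 11.1 to 22.3) and 20.6% at 7 dpi (35 of 170, 14.8 to 27.5). The share at 1 dpi lay below the other 3 intervals. In Uninjured muscle 97.7% of kappa-majority cells also had Iglc UMIs, with medians of 19 Igkc and 6 Iglc UMIs. At 1 dpi that share was 77.2%, with medians of 10 and 2. Iglc UMIs were found in 0 of 238 T cells in Uninjured muscle and in 8 of 563, 4 of 649 and 5 of 624 T cells at 1, 3 and 7 dpi. Igkc was in 0.840% of T cells in Uninjured muscle and 26.3% at 1 dpi.

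**Figure D2:**
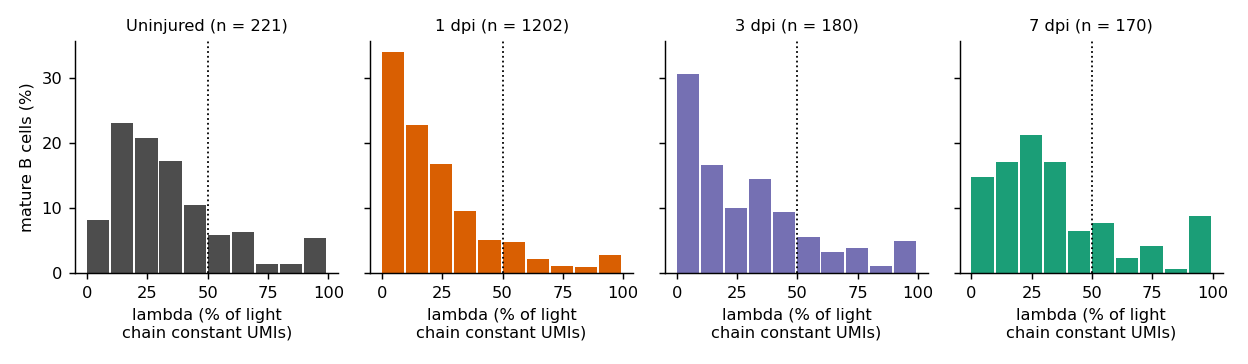
Light chain use of single mature B cells. Bars give the percent of members (with at least 3 light chain constant UMIs) in bins of 10 percentage points of the lambda share (Iglc1, Iglc2 and Iglc3 of all light chain constant UMIs), and the dotted line marks 50%. The tallest bar is the lowest bin at 1 dpi (33.9%) and at 3 dpi (30.6%), and in Uninjured muscle it is the next bin (23.1%).

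Genes were then compared between each injured library and Uninjured muscle. A gene was compared when it had at least 50 UMIs over both libraries, and a difference of 2-fold was used as a mark of size, not of significance. At 1 dpi 22.7% of 8847 genes were past 2-fold, 15.5% higher and 7.21% lower. At 3 dpi 12.4% of 4409 genes were past it (7.21% higher, 5.17% lower), and at 7 dpi 10.3% of 3773 (3.90% higher, 6.41% lower). The counts differ with depth, since more genes reach 50 UMIs at 1 dpi. The median gene was at a log2 ratio of 0.21, 0.11 and -0.05. In T cells it was at 0.28, 0.33 and 0.11, and the share of all T cell genes past 2-fold is not given here. Gene groups below are read against these percentages and medians. In the cells under the 1% limit the share of genes lower was 2.54%, 4.86% and 3.38% at 1, 3 and 7 dpi. The median gene there was at 0.31, 0.11 and -0.05. The share higher at 1 and 3 dpi is not given for those cells, so counts higher there have only these medians beside them. The share higher at 7 dpi was 0.897% in those cells. It was 9.785% without the cells scored highest as doublets, that is droplets with several cells.

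Several genes of follicular B cells were lower at 3 dpi. The low-affinity IgE receptor gene Fcer2a (CD23), a marker of follicular B cells, had 341 CPM in Uninjured muscle, 362 at 1 dpi, 127 at 3 dpi and 302 at 7 dpi. It was 2.69-fold lower at 3 dpi (2.11 to 3.48), and 2.71-fold lower in the cells under the 1% limit. It was seen in 65.5%, 65.4%, 26.6% and 47.4% of members. To remove the effect of depth, each cell was also thinned to 1000 UMIs, which left out 0, 6, 8 and 6 shallower cells. Fcer2a was then seen in 31.4% of Uninjured members (25.4 to 37.9), 34.9% at 1 dpi (32.2 to 37.6), 15.8% at 3 dpi (10.8 to 21.8) and 29.3% at 7 dpi (22.6 to 36.9), and the 3 dpi interval lay below the other 3. Of the 8 follicular genes, 3 were at least 2-fold lower at 3 dpi, against 5.17% of all genes, with a list median of -0.55. They were Fcer2a, the complement regulator gene Cd55 (2.34-fold, 1.91 to 2.88) and Klf2, a transcription factor that maintains homing receptors. Klf2 was not lower at 3 dpi alone, with 5234 CPM in Uninjured muscle, 1648 at 1 dpi and 1749 at 3 dpi. It was the most abundant gene of the list, whose summed level was 0.50 of the Uninjured level at 1 dpi and 0.45 at 3 dpi. At 1 dpi 1 of the 8 genes was at least 2-fold lower, against 7.21% of all genes, with a median of 0.08. In T cells 3 of the 5 genes of this list compared at 3 dpi were at least 2-fold lower too. Their median was -1.29, beside 0.33 over all genes in T cells. The chemokine receptor gene Cxcr5 was seen after thinning in 17.9%, 18.1%, 21.2% and 26.3% of members, with overlapping intervals.

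Several genes of transitional B cells were higher at 3 dpi. Cd93, the surface marker of recent bone marrow emigrants, had 12.2 CPM in Uninjured muscle, 35.7 at 1 dpi, 57.2 at 3 dpi and 6.29 at 7 dpi. Vpreb3, a chaperone that is highest in immature B cells, had 213, 235, 399 and 193 CPM. Spib, an Ets family transcription factor, had 126, 227, 448 and 122 CPM. In all 3 genes the highest level was that at 3 dpi. Spib was 3.57-fold higher there than in Uninjured muscle (2.86 to 4.47) and 3.50-fold higher in the cells under the 1% limit. Of the 5 transitional genes compared at 3 dpi, Spib, Sox4, Cd24a and Bcl2l11 were at least 2-fold higher, that is 4 of 5 against 7.21% of all genes, and the median was 1.06. Bcl2l11 had a higher level at 1 dpi than at 3 dpi. Cd93 had too few UMIs at 3 dpi to be among the 5. In the cells under the 1% limit 2 of 5 were, Spib and Sox4, with a median of 0.95. In T cells 3 of the 3 genes of this list compared at 3 dpi were at least 2-fold higher, with a median of 1.63 beside 0.33 over all genes. At 1 dpi 3 of 7 were at least 2-fold higher in members, against 15.5% of all genes. In the cells under the limit 1 of 7 was.

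After thinning to 1000 UMIs, Vpreb3 was seen in 19.7%, 20.9%, 37.5% and 25.1% of members and Spib in 14.3%, 20.6%, 39.1% and 19.2%. The 3 dpi interval for Spib (32.0 to 46.6) lay above the other 3, and that for Vpreb3 (30.5 to 44.9) lay above those of Uninjured muscle and 1 dpi. Some of these genes were also read in pairs, but Spib was not paired with Cd93 or Vpreb3. At 3 dpi Vpreb3 was seen in 11 of 15 members with Cd93 and in 58 of 169 without it. Members with Cd93 had Fcer2a in 2 of 15 at 3 dpi, and those without it in 27 of 169. Fcer2a was seen there in 6 of 69 members with Vpreb3 (8.70%) and in 23 of 115 without (20%). The 3 dpi library also held the most progenitors per mature B cell. A progenitor with a UMI of Ms4a1 or Ighd but none of the 4 excluded genes would pass the rule. The 1% limit does not count progenitor markers, so values under it do not bear on such cells. The part of such cells in these levels was not tested.

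**Figure D3:**
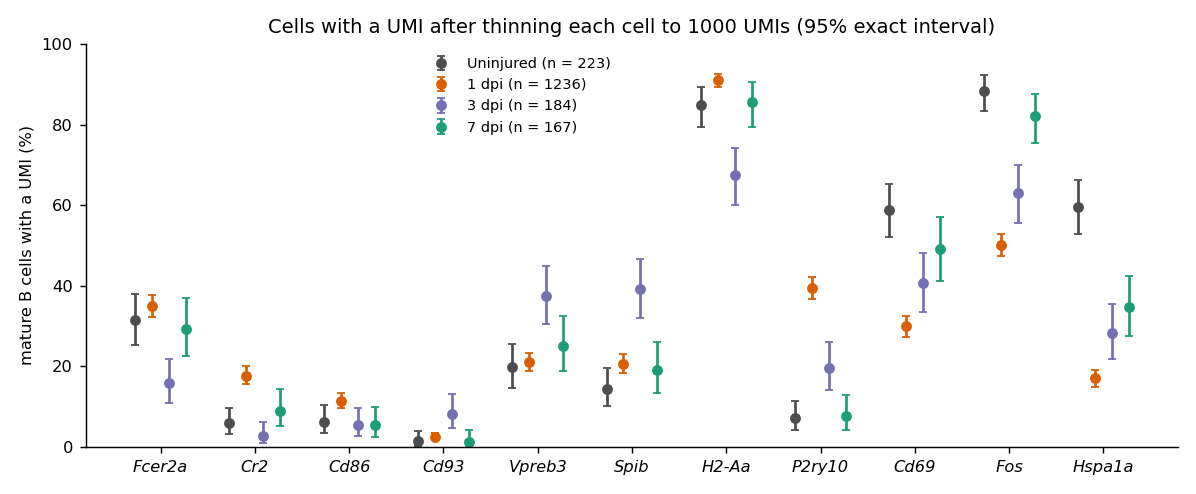
Percent of mature B cells with at least 1 UMI of 11 genes after each cell was thinned to 1000 UMIs, with exact 95% intervals. At 3 dpi Fcer2a (15.8%) and H2-Aa (67.4%) are lowest of the 4 libraries and Vpreb3 (37.5%) and Spib (39.1%) highest; at 1 dpi P2ry10 (39.5%) is highest and Fos (50.1%) and Hspa1a (17.0%) lowest.

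Genes of MHC class II presentation had their lowest levels at 3 dpi in the examples that follow. H2-Aa, an alpha chain of the class II molecule, had 2292 CPM in Uninjured muscle, 3355 at 1 dpi, 1698 at 3 dpi and 2341 at 7 dpi. H2-DMb2, a chain of the peptide-loading factor H2-DM, had 273, 354, 119 and 214 CPM. Ciita, the master regulator of class II transcription, had 124, 174, 74.2 and 122 CPM. The lowest level of each was that at 3 dpi. H2-DMb2 was 2.30-fold lower there than in Uninjured muscle (1.77 to 3.01), as was H2-Oa, a chain of the loading inhibitor H2-O, by 2.23-fold (1.56 to 3.25). These were the 2 of 10 class II genes past 2-fold at 3 dpi, against 5.17% of all genes at least 2-fold lower. The list median was -0.70, or -0.81 in the cells under the 1% limit. The median over all genes was 0.11 in either set of cells. None of the 10 was past 2-fold at 1 or 7 dpi. After thinning, H2-Aa was seen in 67.4% of members at 3 dpi (60.1 to 74.1) against 84.8% in Uninjured muscle (79.4 to 89.2). MHC class I genes had a median log2 ratio of 0.19 at 3 dpi with none of 9 past 2-fold.

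Cr2, Cd86 and Ccr6 were higher at 1 dpi. The lists that hold Cd86 and Ccr6 had genes in both directions. Of 17 costimulation and activation genes compared at 1 dpi, 3 were at least 2-fold higher and 1 lower, with a median of 0.15. Under the 1% limit 1 was higher and 2 were lower. Of 14 homing and chemokine receptor genes, 3 were at least 2-fold higher and 1, Klf2, was lower. Their median was 0.35, or -0.03 under the 1% limit. Over all genes 15.5% were higher and 7.21% lower, with a median of 0.21, or 0.31 under the limit. The counts of both lists were near these shares. Cr2, the complement receptor CD21, had 34.5 CPM in Uninjured muscle, 177 at 1 dpi, 32.5 at 3 dpi and 52.5 at 7 dpi. It was 5.13-fold higher at 1 dpi (3.59 to 7.60), and 3.53-fold higher in the cells under the 1% limit. After thinning it was seen in 17.7% of members at 1 dpi (15.6 to 19.96) against 5.83% in Uninjured muscle (3.14 to 9.76). Cd86, a ligand that costimulates T cells, had 27.8, 114, 47.9 and 48.2 CPM. It was 4.12-fold higher at 1 dpi (2.76 to 6.42), and 2.72-fold in the cells under the limit. The chemokine receptor gene Ccr6 had 22.2, 71.1, 17.0 and 48.2 CPM. Marginal zone B cells have high Cr2 and low Fcer2a. Of 6 marginal zone genes compared at 1 dpi, Cr2 and Dtx1 were at least 2-fold higher and 1 was lower, against 15.5% and 7.21% of all genes, with a median of 0.02. Under the 1% limit 3 of 5 were higher and 1 lower, with a median of 1.77. After thinning, Fcer2a was seen in 42.5% of members with Cr2 at 1 dpi and in 33.2% of those without it.

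The largest ratios at 1 dpi included myeloid genes. Of the 10 largest, 6 (S100a9, Camp, S100a8, Ngp, Lyz2 and Elane) had a lower level in members than in the other cells of the library and were set aside for that reason. Among genes at least as high in members as in other cells, Dtx1 and P2ry10 stood among the 10 largest and were seen in 18.2% and 70.8% of members at 1 dpi. P2ry10, a receptor for lysophospholipids at chrX:107088492-107104974 (plus strand, GRCm38), had 51.1 CPM in Uninjured muscle, 464 at 1 dpi, 190 at 3 dpi and 46.1 at 7 dpi. It was seen in 15.2%, 70.8%, 40.1% and 10.98% of members, and in 39.5% at 1 dpi after thinning against 7.17% in Uninjured muscle. The ratio at 1 dpi was 9.08 (6.79 to 12.4), and 6.44 in the cells under the 1% limit. T cells had 25.8, 172, 83.9 and 23.8 CPM, the same order, with a ratio of 6.67 at 1 dpi. Dtx1, a ubiquitin ligase of the Notch pathway that is also on the marginal zone list, rested on 4 UMIs in Uninjured muscle and 291 at 1 dpi. Its ratio was 13.0 (5.02 to 48.0) in members and 1.25 in T cells. In the cells under the 1% limit Ptpn22, a phosphatase that restrains antigen receptor signals, was 7.26-fold higher at 1 dpi (3.08 to 22.5), and Plaur, the urokinase receptor, 5.17-fold (3.53 to 7.88). These last 2 genes were picked after the values were seen, as genes in which no cell held over 20% of UMIs.

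Genes of B cell receptor signalling had a median log2 ratio of 0.60 at 1 dpi, where 6 of 17 were at least 2-fold higher, against 15.5% of all genes. In the cells under the 1% limit 2 of 17 were, with a median of 0.29 beside 0.31 over all genes. At 3 and 7 dpi 1 of 16 and 0 of 15 were at least 2-fold higher over all members, against 7.21% and 3.90% of all genes. The BAFF receptor gene Tnfrsf13c, which carries the main survival signal of mature B cells, had 107, 190, 212 and 113 CPM. Bcl2l11, the proapoptotic gene Bim, had 31.1, 118, 64.9 and 33.6 CPM and was 3.801-fold higher at 1 dpi (2.60 to 5.77). T cells had 33.4, 105, 103 and 34.2 CPM of Bcl2l11.

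Several heat shock genes were highest in Uninjured members. Hspa1a, an inducible Hsp70 gene, had 1993 CPM in Uninjured muscle, 448 at 1 dpi, 714 at 3 dpi and 709 at 7 dpi. It was 4.45-fold lower at 1 dpi (4.18 to 4.74), and 6.25-fold lower in the cells under the 1% limit. T cells had 886, 885, 606 and 284 CPM, so in T cells the level at 1 dpi was that of Uninjured muscle. Of 9 heat shock genes, 4 were at least 2-fold lower at each time point, against 7.21%, 5.17% and 6.41% of all genes. They were Hspa1a, Hspa1b, Dnajb1 and Hsph1 (chaperones induced by the heat shock response), and the list medians were -0.80, -0.99 and -0.93. In the cells under the 1% limit 5, 4 and 3 of the 9 were at least 2-fold lower, against 2.54%, 4.86% and 3.38% of all genes. In T cells 0, 0 and 5 of the 9 were at least 2-fold lower at 1, 3 and 7 dpi. The medians were 0.03, -0.02 and -1.03, beside 0.28, 0.33 and 0.11 over all genes in T cells.

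Immediate early genes are transcribed within minutes of stimulation or of tissue dissociation, and several were also highest in Uninjured members. Fos had 6903 CPM in Uninjured muscle, 2012 at 1 dpi, 1962 at 3 dpi and 3526 at 7 dpi. Jun had 5691, 2079, 3059 and 3959 CPM, and Klf2 had 5234, 1648, 1749 and 3208. All 3 were highest in Uninjured members. Fos was 3.43-fold lower at 1 dpi (3.32 to 3.54), 3.52-fold at 3 dpi (3.31 to 3.74) and 1.96-fold at 7 dpi (1.85 to 2.07), and in the cells under the 1% limit 4.08-, 3.14- and 1.69-fold. T cells had 4258, 2474, 1888 and 2482 CPM of Fos. Of 15 immediate early genes 6, 3 and 2 were at least 2-fold lower at 1, 3 and 7 dpi, against 7.21%, 5.17% and 6.41% of all genes. In the cells under the 1% limit these counts were 7, 2 and 0, against 2.54%, 4.86% and 3.38%. The list medians over all members were -0.60, -0.67 and -0.62. In T cells 1, 3 and 2 of the 15 were at least 2-fold lower and 1, 1 and 0 higher. Their medians were 0.08, -0.24 and -0.51. The Jun family gene Junb had 3570, 3264, 3027 and 2316 CPM.

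After thinning, Hspa1a was seen in 64.5% of Uninjured members with Fos and 23.1% of those without it, in 26.2% and 7.78% at 1 dpi, in 37.9% and 11.8% at 3 dpi, and in 39.4% and 13.3% at 7 dpi. Cd69, an early activation marker that holds lymphocytes in tissue, had 818, 389, 430 and 455 CPM and was 2.10-fold lower at 1 dpi (1.93 to 2.29). The part of dissociation time or handling in these levels was not tested, and with 1 dissociation per time point it cannot be told apart from the injury.

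**Figure D4:**
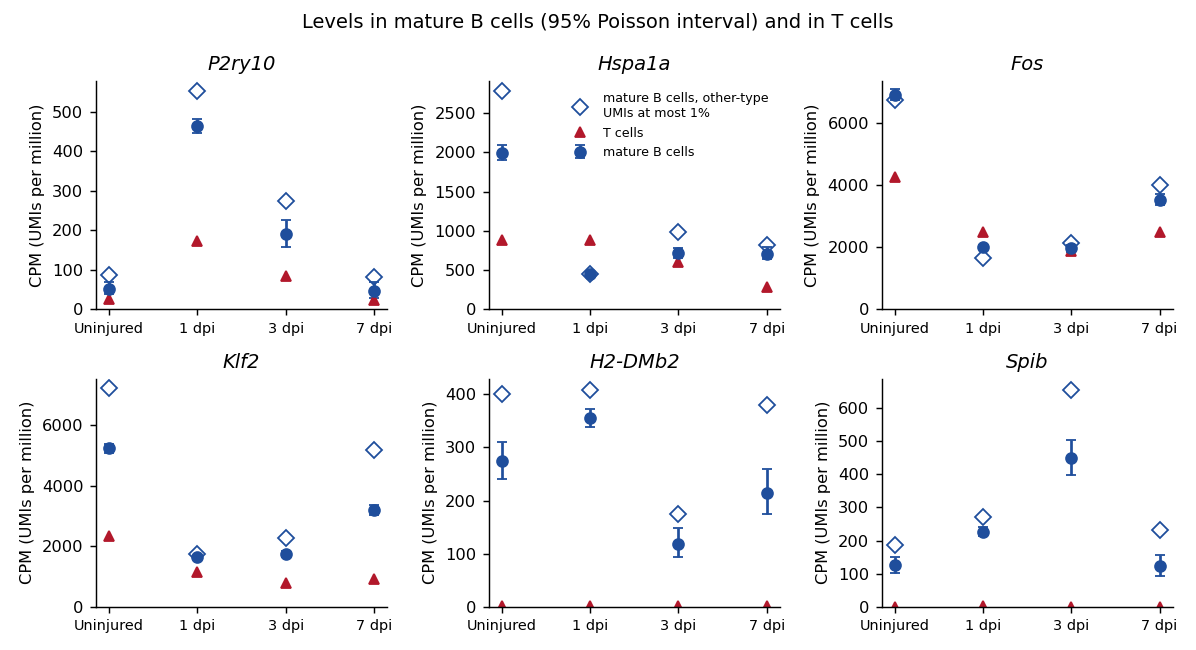
Levels of 6 genes in the 4 libraries, in CPM. Filled circles, mature B cells with 95% Poisson intervals; open diamonds, mature B cells under the 1% limit on other-type UMIs; triangles, T cells. P2ry10 is highest at 1 dpi in both B and T cells, Hspa1a, Fos and Klf2 are highest in Uninjured B cells, and H2-DMb2 is lowest and Spib highest at 3 dpi in B cells.

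Several interferon-stimulated genes with low levels in Uninjured muscle were higher at 1 dpi, while the most abundant of the list was not. Ifi27l2a, which led the list in every library, had 594 CPM in Uninjured muscle, 566 at 1 dpi, 388 at 3 dpi and 445 at 7 dpi. Its level at 1 dpi was within counting error of that in Uninjured muscle (ratio 0.95, 0.87 to 1.05), and in the cells under the 1% limit it was 1.43-fold lower. Isg15, a ubiquitin-like protein, had 21.1 CPM in Uninjured muscle, 91.9 at 1 dpi, 74.2 at 3 dpi and 77.6 at 7 dpi. Rsad2, the antiviral protein viperin, had 3.33, 48.2, 15.4 and 6.29 CPM. Bst2, which tethers budding virus, had 70.0, 182, 181 and 94.4 CPM. Isg15 was above its Uninjured level in all 3 injured libraries, and Rsad2 was highest at 1 dpi. At 1 dpi 10 of the 22 genes compared were at least 2-fold higher, against 15.5% of all genes. In the cells under the 1% limit 9 of 18 were, with a median of 0.94 beside 0.31 over all genes. The list median over all members was 0.80 at 1 dpi, 0.52 at 3 dpi and 0.13 at 7 dpi. In T cells the median at 1 dpi was 1.32, beside 0.28 over all genes. Without cells with 2 other-type UMIs the medians in members were -0.17, -2.57 and -1.63, over only 3, 1 and 1 genes. The summed level of the list in the cells under the 1% limit was 1244 CPM in Uninjured muscle and 1368 at 1 dpi, and the median over single members was 1007 and 675.9 CPM. At least 1 UMI of the list was found in 83.9%, 82.8%, 72.4% and 71.7% of members. Isg15 was seen in 3.14%, 9.66%, 6.25% and 6.36% of members, against 50.8%, 51.3%, 41.4% and 29.8% of T cells, and over the other cells of each library it stood at 44.7, 351, 137 and 75.4 CPM. The part of RNA from other cells in the levels of members was not tested. Of 10 interferon gamma target genes compared at 1 dpi, 0 were at least 2-fold higher and 1 lower, against 15.5% and 7.21% of all genes.

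The promoters of these genes were read for the element through which interferon signalling acts, a spaced repeat of GAAA, searched here as GAAA, any 2 bases and GAAA on both strands in RefSeq promoters of GRCm38.p6, from 250 bases before to 50 after the start. The letters were found in 12 of the 17 listed genes with a promoter in the table (70.6%) and in 3.99% of 27025 genes (3.44% of 32851 promoters). They were found in 5 of 7 listed genes at least 2-fold higher at 1 dpi and in 6 of 9 that were not, so the match did not separate the genes that differed. The 150 bases before the start of 4 listed genes, read 5′ to 3′ on the gene's strand, hold the matches in capitals. Overlapping matches run together. Of these 4, Ifit1 was among the genes not 2-fold higher at 1 dpi (log2 ratio 0.88). Isg15 is read from chr4:156200819-156200968 on the minus strand, Rsad2 from chr12:26456453-26456602 on the minus strand, Bst2 from chr8:71537473-71537622 on the minus strand and Ifit1 from chr19:34640739-34640888 on the plus strand.
Isg15: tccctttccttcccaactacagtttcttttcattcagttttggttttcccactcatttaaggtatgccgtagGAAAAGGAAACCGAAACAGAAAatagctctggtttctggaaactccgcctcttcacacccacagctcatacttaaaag
Rsad2: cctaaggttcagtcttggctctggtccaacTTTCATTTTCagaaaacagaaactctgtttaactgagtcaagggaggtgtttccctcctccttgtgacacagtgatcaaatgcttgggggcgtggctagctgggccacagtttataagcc
Bst2: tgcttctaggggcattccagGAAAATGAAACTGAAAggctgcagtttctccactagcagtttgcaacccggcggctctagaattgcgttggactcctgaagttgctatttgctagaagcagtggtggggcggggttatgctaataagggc
Ifit1: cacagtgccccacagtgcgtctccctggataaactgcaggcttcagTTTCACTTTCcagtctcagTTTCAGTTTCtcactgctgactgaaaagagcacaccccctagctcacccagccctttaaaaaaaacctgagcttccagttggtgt
In Isg15 and Bst2 the repeat lies on the printed strand, and in Rsad2 and Ifit1 it is read from the opposite strand as TTTC. A match in these letters is a description of the sequence and not evidence of binding.

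**Figure D5:**
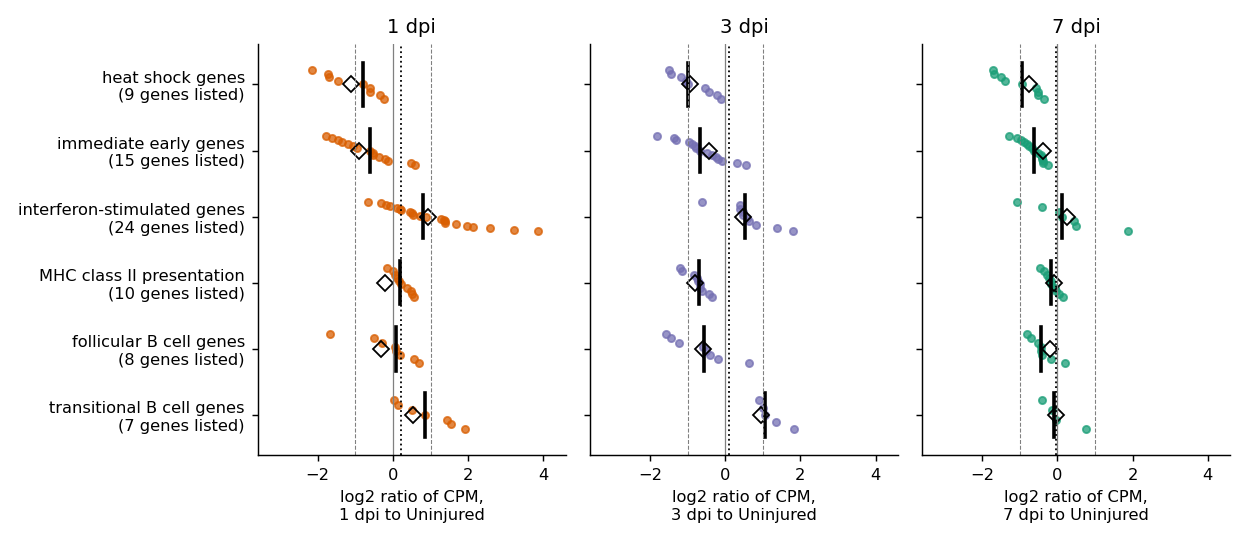
Log2 ratio of CPM in each injured library to Uninjured muscle for the genes of 6 lists with at least 50 UMIs over both libraries. Points, genes; black bars, list medians over all members; open diamonds, list medians over the cells under the 1% limit; dotted line, median of all genes compared; dashed lines, 2-fold. Heat shock genes have medians of -0.80, -0.99 and -0.93, interferon-stimulated genes 0.80, 0.52 and 0.13, and transitional genes 1.06 at 3 dpi.

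Cell cycle genes were sparse. Members with at least 2 UMIs of the 16 listed genes were 10.8% in Uninjured muscle (7.02 to 15.6), 20.1% at 1 dpi (17.9 to 22.5), 16.7% at 3 dpi (11.7 to 22.7) and 11.6% at 7 dpi (7.21 to 17.3). At 1000 UMIs per cell these were 1.35%, 2.83%, 4.89% and 3.59%, with overlapping intervals, so the order of the first set did not hold at equal depth. T cells had 6.75%, 7.84%, 17.0% and 17.5% at that depth. By level, 8 of 13 genes compared at 1 dpi were at least 2-fold higher and 1 lower, with a median of 1.45. This compares with 15.5% and 7.21% of all genes. Under the 1% limit 7 of 8 were higher, with a median of 1.33 beside 0.31 over all genes. The summed list was 2.05-, 2.46- and 2.49-fold its Uninjured level at 1, 3 and 7 dpi. Under the 1% limit it had 187 CPM in Uninjured muscle, 514 at 1 dpi, 490 at 3 dpi and 201 at 7 dpi. Mki67, a marker of dividing cells, was seen in 4, 30, 8 and 6 members.

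Cytokine genes were mostly few in number. Ltb, the membrane-bound lymphotoxin beta, had 425 CPM in Uninjured muscle, 217 at 1 dpi, 190 at 3 dpi and 487 at 7 dpi. It was 2.23-fold lower at 3 dpi (1.82 to 2.76) and 1.96-fold lower at 1 dpi (1.74 to 2.20). The anti-inflammatory cytokine gene Il10 had 68 UMIs in 22 members at 1 dpi (1.77%, 1.11 to 2.67) and none in the other 3 libraries, which by a limit of 3 cells allow up to 1.345%, 1.562% and 1.734% of members with a UMI. T cells had it in 2.84% at 1 dpi, so the share in members was no higher than in T cells.

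BMP receptor and target genes were read because the mice carry a Bmp4 transgene. Bmpr2, the type II BMP receptor, had 24.5, 15.9, 30.9 and 33.6 CPM in members, compared with 63.5, 64.2, 73.3 and 56.4 CPM in all other cells, and 3.99, 5.53, 9.86 and 8.55 CPM in the cells under the 1% limit. Id3, a target of BMP signals that B cells also use downstream of their receptor, had 256, 98.7, 173 and 166 CPM. It was 2.59-fold lower at 1 dpi (2.21 to 3.04) and 2.36-fold lower in the cells under the limit. Of 8 genes of this list compared at 1 dpi, 1 was at least 2-fold higher and 1, Id3, lower, against 15.5% and 7.21% of all genes. The summed list at 1 dpi was 1.02 of its Uninjured level (0.94 to 1.11). Smad7 was its most abundant gene at 1, 3 and 7 dpi, with 356, 185 and 191 CPM.

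The largest ratios at 7 dpi were those of cartilage and bone matrix genes. Of the 10 largest, 9 (Col2a1, Ibsp, Col11a1, Ptn, Acan, Ecrg4, Snorc, Col9a3 and Col9a2) had a lower level in members than in other cells and were set aside, and 53.2% of members at 7 dpi had a UMI of the 6 chondrocyte markers. Among genes at least as high in members as in other cells, the largest ratios rested on few cells. Lyz2, a myeloid lysozyme, had 3 UMIs in Uninjured members and 418 at 7 dpi, in 15 cells, and the top cell held 52.4% of them. Gzma, a cytotoxic granule protease of NK and T cells, was 16.2-fold higher (9.48 to 29.8), with 74.4% of its UMIs in the top cell. Haemoglobin genes were the lowest in all 3 comparisons, and a single Uninjured cell held 95.9% of the Hbb-bs UMIs. Gm42418, a transcript that overlaps ribosomal RNA sequence, made up 1.19%, 5.62%, 4.34% and 3.84% of UMIs in members and 1.37%, 5.52%, 3.76% and 3.87% in T cells. In the cells under the 1% limit at 7 dpi, Hist1h2ap, a histone H2A gene, was 8.57-fold lower (4.56 to 18.2). Genes higher there were ranked if no cell held over 20% of their UMIs. They also needed at least 50 UMIs at 7 dpi and a level at least that of other cells. After Gm42418, AY036118 and Lars2 no ranked gene was over 2.06-fold higher. Of all 1896 genes compared in those cells, 17 were at least 2-fold higher.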

How the data were processed

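Tibial muscles were digested with collagenase and 3 were pooled per library. Per the labels, the authors used Cell Ranger 5.0.0 with STAR on mm10, and their processing notes also name Seurat 3.1.1. The labels mention down-sampling of reads as an optional step. The deposited matrices hold whole-number UMI counts per gene and cell, with no row that names no gene, and were used as deposited. The libraries held 112317902, 91146335, 116346301 and 129007669 UMIs (Uninjured, 1, 3 and 7 dpi). UMIs of members were summed per library and scaled to CPM. Ratios have exact conditional binomial intervals, levels Poisson intervals and shares Clopper-Pearson intervals (95%). Against a library with 0 UMIs a ratio uses a floor of 3 UMIs, and a share of 0 cells is given the limit of 3 cells of the total. The members and gene lists were chosen with earlier results of these data known. Named genes were list members and the 10 largest ratios each way among genes with at least 50 UMIs in the library where the gene was higher and a level there at least that of all other cells, leaving out rule, immunoglobulin variable and mitochondrial genes. T cells were Cd3e-positive without Cd79a or Cd79b. Doublets were scored with Scrublet in scanpy 1.11.5 and kept in the main values (33, 115, 21 and 7 members lay in the top 7.5%, with an automatic threshold marking 372, 278, 0 and 0 cells). Analyses used Python 3.11.15, numpy 2.4.6, scipy 1.17.1 and pandas 2.3.3. On simulated counts, 95.7% of ratio intervals held the true ratio. Alternatives covered thresholds of the rule, gene minimum, fold, scaling, thinning, doublets and other-type UMIs, and those on other-type UMIs at 1%, on thinning to 1000 UMIs and on the light chain majority were added after seeing the data.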

Additional observations from a re-analysis of the deposited data

How the results depend on the processing

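No paired analysis was possible because each time point had 1 library, and no replicate could be left out. Depth limits low genes most, and 7 dpi had the fewest B cell UMIs. The percent of mature B cells (Uninjured, 1, 3, 7 dpi) was 2.207, 12.28, 1.976 and 0.9077 with neither Ms4a1 nor Ighd needed, and 1.357, 9.014, 0.4245 and 0.1179 after thinning to 2000 UMIs. In cells under the 1% limit it was 1.59 in Uninjured muscle, 10.61 at 1 dpi and 0.6428 at 7 dpi. With a Cd79 minimum of 5 it was 9.49, 0.9846 and 0.4517 at 1, 3 and 7 dpi, and with 2 it was 1.58 at 3 dpi. At 1 dpi it was 8.556 with a mitochondrial limit of 5% and 10.77 with none. The 1 dpi share stayed the highest in each of these.

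Genes higher and lower numbered 2800 and 1383 at 1 dpi, 975 and 560 at 3 dpi and 397 and 589 at 7 dpi for 1.5-fold. Without cells with 2 other-type UMIs they were 392 and 85, 27 and 47, and 7 and 46, over fewer cells. With a minimum of 20 UMIs they were 869 and 473 at 3 dpi and 409 and 617 at 7 dpi, with 1055 lower at 1 dpi. With 100 they were 132 and 141 at 3 dpi and 83 and 127 at 7 dpi, with 420 lower at 1 dpi. Without the top-scored doublets 223 were lower at 1 dpi and 141 at 3 dpi, and 260 were higher and 117 lower at 7 dpi. In cells under the 1% limit 190, 123 and 64 were lower at 1, 3 and 7 dpi, and 17 were higher at 7 dpi. Centring on the median gave 891 higher at 1 dpi, and the mean of single cells 518 higher at 3 dpi.

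Cells at least 90% kappa were 14.89% in Uninjured muscle and 41.9% at 1 dpi after thinning to 1000 UMIs, and lambda 4.167% at 7 dpi at 2000 UMIs. Members with cell cycle genes were 1.345%, 2.832%, 4.891% and 3.593% at 1000 UMIs, and 5.208% in Uninjured muscle, 10.38% at 1 dpi and 18.42% at 7 dpi at 2000 UMIs. They were 17.04% at 1 dpi without top-scored doublets, and 17.9% at 1 dpi and 4.054% at 7 dpi under the 1% limit.

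Among list medians and named genes that were past 2-fold over all members, values that reversed were the median log2 ratio of immunoglobulin constant genes without cells with 2 other-type UMIs (-1.148 at 1 dpi, -0.3256 at 3 dpi) and that of circadian genes at 3 dpi (0.1528 without top-scored doublets, 0.3671 under the 1% limit). At 7 dpi the log2 ratios of Tyrobp (-0.7215) and Fxyd5 (-0.1614) reversed under the 1% limit. Of all 87 list medians, 48 changed sign under at least 1 alternative, and 3 of these had a size of at least 2-fold over all members. Under the 1% limit these included MHC class II at 1 dpi (-0.2068), follicular genes at 1 dpi (-0.3045), homing receptors at 1 dpi (-0.02522) and cytokines at 1 dpi (0.59). The interferon-stimulated median at 1 dpi was -0.1685 without cells with 2 other-type UMIs, over the 3 genes that could then be compared. At 3 and 7 dpi it was -2.567 and -1.634, over 1 gene each. A gene with too few UMIs under an alternative, such as Fcer1g or Wwp2 under the 1% limit, was not compared there. The causes were not tested.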
